A study of Mus musculus with 2 samples.

Results

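Matrix metalloproteinases (MMPs), ADAM and ADAMTS proteases and their tissue inhibitors (TIMPs) were followed in the colon of mice on a fibre diet. Members were the probe sets that name exactly 1 gene whose symbol starts with Mmp, Timp, Adam or Adamts followed by a digit, so ADAMTS-like genes were left out. The rule found 83 of 41345 probe sets, which measure 77 of 22180 named genes: 22 Mmp, 33 Adam, 18 Adamts and 4 Timp genes. The rule uses names only and no measured value. The series holds 2 arrays of total colon RNA from healthy male ICR mice, an outbred stock, aged 7 weeks. The control array carried RNA of mice on a diet without psyllium, and the other that of mice on a diet with 10% psyllium, a gel-forming seed-husk fibre, over 5 days. How many animals stand behind each array, and which part or layers of the colon were used, is not stated in the labels.

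Each diet has 1 array, so no difference here has a replicate check, and no error or p-value can be given. Values are the authors' normalised intensities on a linear scale. A difference is log2 of the psyllium value minus log2 of the control value, and a fold is the ratio of the same intensities. Probe sets differ in brightness, so levels are compared between arrays for the same gene and never between genes. A gene was past the intensity filter when its brighter array reached 69.5, the median of that quantity over all named genes. A gene can pass on 1 array alone, and its fold is then uncertain because the other value is dim.

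MMPs are secreted or membrane-bound zinc enzymes that cleave collagens and other matrix proteins. ADAMs are membrane proteins, many of which release growth factors and receptors from the cell surface, while ADAMTS enzymes are secreted and cut proteoglycans, procollagens and microfibril-associated proteins. TIMPs are small secreted proteins that bind and block the active site of MMPs and, to a varying degree, of the other 2 families. In the gut wall fibroblasts and muscle cells make much of the matrix and many of these enzymes, and MMP7 is a known epithelial member.

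Promoter sequences of a few members are shown first, because the Mmp values further on are given by the position of the genes. In the RefSeq gene table of assembly GRCm38.p6, 10 Mmp genes are direct neighbours on chromosome 9, in the order Mmp13, Mmp12, Mmp1b, Mmp3, Mmp1a, Mmp10, Mmp8, Mmp27, Mmp20 and Mmp7. The other 12 Mmp genes have no Mmp gene next to them. RefSeq promoter windows, 250 bases before to 50 after a transcription start, matched 47 of the 77 members by gene number. The windows were searched on both strands for TGAGTCA, the binding site of AP-1 (a factor of the Fos and Jun proteins), for TATAAA, the TATA box, and for GGGCGG, the GC box. Different motifs of these 3 cannot overlap, because on neither strand does the end of one equal the beginning of another. A match is a description of letters and not a shown binding site. The 100 bases before the start are given 5′ to 3′ on the gene's strand, in lower case with matches of any of the 3 motifs, or of their reverse complements, in capitals.
Mmp13 (GRCm38.p6, chr9:7272414-7272513, + strand): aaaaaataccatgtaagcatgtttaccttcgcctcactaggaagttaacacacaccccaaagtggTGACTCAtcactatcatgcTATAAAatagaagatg
Mmp10 (GRCm38.p6, chr9:7502242-7502341, + strand): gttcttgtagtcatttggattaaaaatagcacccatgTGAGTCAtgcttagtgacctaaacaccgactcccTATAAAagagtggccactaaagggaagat
Mmp7 (GRCm38.p6, chr9:7691990-7692089, + strand): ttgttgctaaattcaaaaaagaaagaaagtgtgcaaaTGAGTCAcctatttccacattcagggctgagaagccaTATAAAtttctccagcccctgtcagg
Mmp14 (GRCm38.p6, chr14:54431498-54431597, + strand): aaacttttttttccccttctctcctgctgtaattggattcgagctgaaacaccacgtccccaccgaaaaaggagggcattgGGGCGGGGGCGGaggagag
Mmp24 (GRCm38.p6, chr2:155775242-155775341, + strand): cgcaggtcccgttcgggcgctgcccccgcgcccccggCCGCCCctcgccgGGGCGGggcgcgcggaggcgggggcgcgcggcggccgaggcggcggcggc
Timp1 (GRCm38.p6, chrX:20870066-20870165, + strand): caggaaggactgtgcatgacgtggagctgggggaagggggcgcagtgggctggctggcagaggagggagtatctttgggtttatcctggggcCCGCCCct

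The first 3 belong to the chromosome 9 cluster and carry an AP-1 site upstream of a TATA box, while Mmp14, Mmp24 and Timp1 lie elsewhere and carry GC boxes. Of the 10 cluster genes, 7 had an AP-1 match and a TATA match in a window, and none had a GC box. Mmp8 and Mmp20 had a TATA match alone, and Mmp27 had none of the 3 motifs. Of the 7 other Mmp genes with a window, 6 had a GC box, 1, Mmp21, had a TATA match alone, and none had an AP-1 match. Mmp2, Mmp9, Mmp16, Mmp17 and Mmp19 had no window. The windows also differed in base composition, with a median share of G and C of 41.7% in the cluster and 63.3% for the other Mmp genes. Over all windows it was 52.7%. Among all 32851 windows of the table, AP-1 matches occurred in 5.20%, TATA matches in 13.6% and GC boxes in 35.7%. GC boxes were found for 3 of 4 Timp genes and 7 of 9 Adamts genes with a window, and AP-1 matches for none of them.

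Past the filter were 27 of 77 members (35.1%), against 50% of all named genes by construction. Since probe sets differ in brightness, this counts which values could be used and does not compare expression. By family this was 8 of 22 Mmp, 7 of 33 Adam, 9 of 18 Adamts and 3 of 4 Timp genes. The other 50 members stayed under it on either array. A low intensity does not show that a transcript is absent.

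Over all 77 members, 11 exceeded their control value at least 1.5-fold in the psyllium array (14.3%), and 3 fell short of it by that factor (3.90%). The same folds were met by 3.42% and 2.81% of all named genes. The share of members that were higher was thus above the background, and the share that were lower was close to it. Past the filter, 9 of 27 members were higher and 1 was lower, against 4.02% and 2.43% of the 11090 genes past it. Of these 9, only Timp2 reached the filter's intensity on the control array, and the other 8 passed through the psyllium array, where they are high. With both arrays required to reach the filter, 1 of 12 members was higher and none lower, against a background of 3.3% higher and 2.08% lower. With a filter on the mean of both arrays, chosen after the data had been seen, 5 of 22 were higher and none lower, against 3.72% and 2.27%. No member past the filter reached 2-fold in the psyllium direction, where 1.06% of genes were, and 1, Adamts18, was at least 2-fold lower, where 0.523% were.

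The families differed in their median difference. It was 0.52 for the 4 Timp genes, 0.33 for the 18 Adamts genes, 0.09 for the 22 Mmp genes and -0.06 for the 33 Adam genes, against -0.0025 for all named genes. Positive differences were found for 4 of 4 Timp, 17 of 18 Adamts, 15 of 22 Mmp and 15 of 33 Adam genes, against 47.2% of all named genes. The Adam median turned to 0.20 over the 7 Adam genes past the filter, so that family had no settled direction. Medians over genes past the filter support no direction, since 14 of the 27 members past it, 5 of the 8 Mmp genes among them, passed on the psyllium array alone, where they are high.

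**Figure D1:**
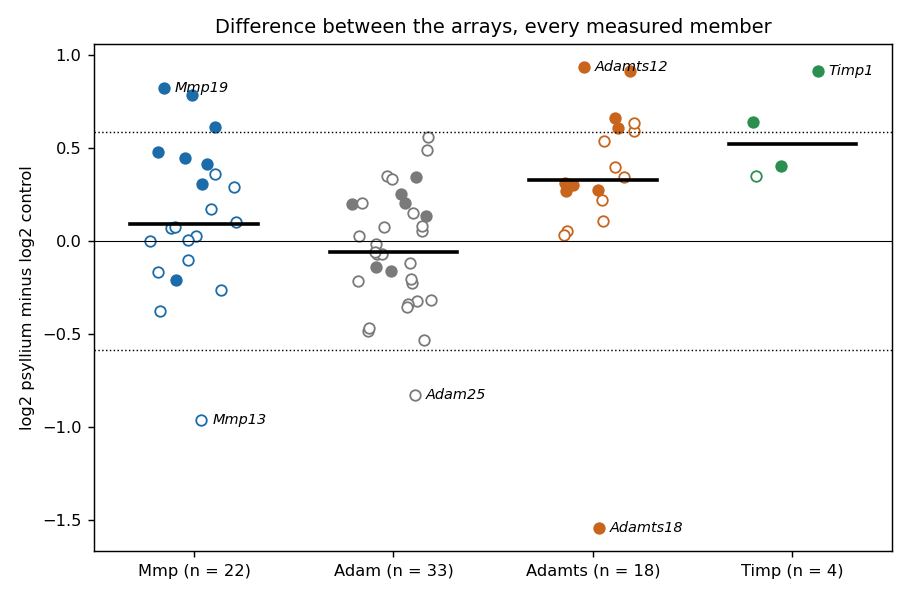
Each point is a measured gene, placed by log2 psyllium minus log2 control (vertical axis) within its family (horizontal axis). Filled points are past the intensity filter, bars are family medians and dotted lines mark 1.5-fold. The 4 Timp genes lie between 0.35 and 0.92, and 17 of 18 Adamts genes lie above 0, whereas Adam genes lie on both sides.

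The inhibitors were the family with the highest median. Timp1, the inducible inhibitor often raised in wound repair and inflammation, had an intensity of 41.4 on the control and 78.2 on the psyllium array, a 1.89-fold difference. Its control value lay below the filter, so the size of that fold is uncertain. Timp2, which also takes part in the activation of pro-MMP2 at the cell surface, had 254 on the control and 396 on the psyllium array (1.56-fold), with both values well past the filter. Timp3, the matrix-bound inhibitor that also acts on ADAM17 and ADAMTS enzymes, had 304 and 402, a 1.32-fold difference. Timp4 was dim on both arrays, at 19.9 and 25.3, with a difference of 0.35. All 4 inhibitors were thus higher on the psyllium array, 2 of them by at least 1.5-fold, against 3.42% of all named genes.

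Gelatinase A and its membrane-bound activator were higher by similar amounts. Mmp2, which digests denatured collagen and basement membrane collagen, had 290 on the control and 396 on the psyllium array, a 1.37-fold difference. Mmp14, the membrane-type enzyme that activates pro-MMP2 together with TIMP2, had 225 and 314, a 1.39-fold difference. Both were past the filter on both arrays, and neither reached 1.5-fold. Mmp9, the gelatinase of neutrophils and macrophages, was dim at 42.7 and 45.9, a difference of 0.10.

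Of the other Mmp genes outside the cluster, 3 were at least 1.5-fold higher, as were 3.42% of all named genes. Mmp19, a widely expressed secreted MMP, had 59.8 on the control and 106 on the psyllium array (1.77-fold). Mmp17, a membrane-type MMP held by a lipid anchor, had 41.4 and 71.4 (1.73-fold). Mmp24, a transmembrane MMP best known from neurons, had 49.6 and 75.8 (1.53-fold). All 3 had a dim control value, and a probe set shared by Mmp24 and BC029722, its neighbour, gave a smaller difference of 0.32 (55.7 and 69.7). Mmp28, an MMP of epithelia and other tissues, had 66.1 and 88.0, a difference of 0.41, and Mmp23 had 63.8 and 78.9, a difference of 0.31. Of the 12 genes outside the cluster, 11 had a positive difference, with a median of 0.36.

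In the chromosome 9 cluster 4 of 10 genes had a positive difference, the median was -0.08, and only Mmp7 was past the filter. Mmp7, matrilysin, had 180 on the control and 155 on the psyllium array, a difference of -0.21, and a dimmer second probe set gave -0.06 (23.8 and 22.9). Mmp13, a collagenase, had 45.4 and 23.3, a 1.95-fold lower value, but neither array reached the filter. Mmp12, the macrophage elastase, had 30.3 and 25.3, a difference of -0.26. The stromelysins Mmp3 and Mmp10, both enzymes with broad matrix substrates, had 18.7 and 21.1, and 40.2 and 35.8, with differences of 0.18 and -0.17. Mmp8, the neutrophil collagenase, had the same deposited value of 24.2 on both arrays. The other 9 cluster genes were below the filter on both arrays, and none of them can be given a firm direction. The grouping by position was made after these values were known, and no difference between cluster and other Mmp genes was tested.

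**Figure D2:**
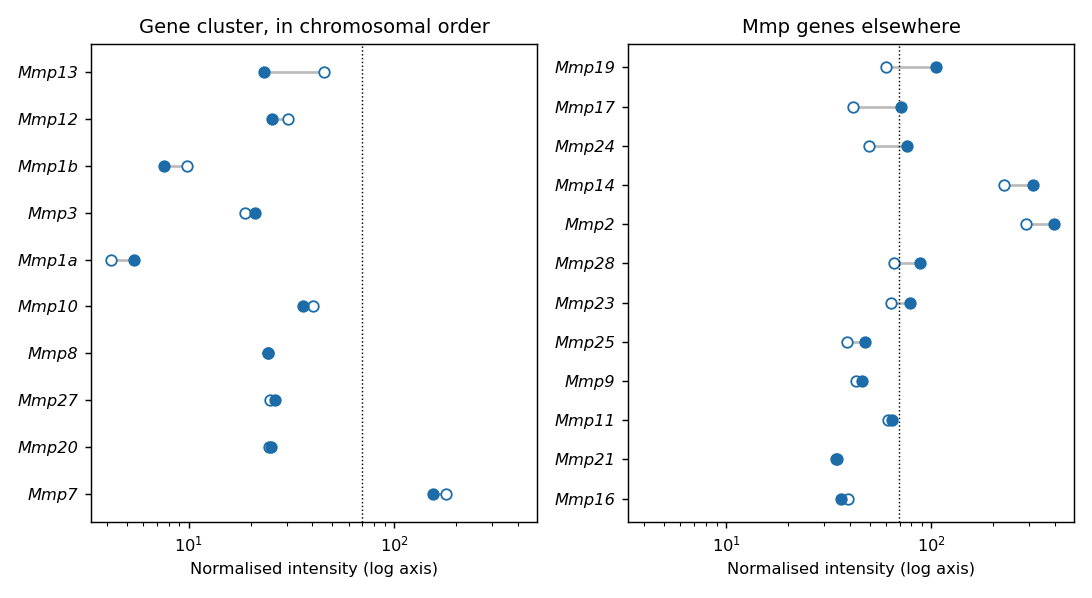
Normalised intensity (horizontal, log axis) of the 22 Mmp genes, with the 10 genes of the chromosome 9 cluster on the left and the 12 others on the right. Open points are the control array, filled points the psyllium array, and the dotted line is the filter of 69.5. Mmp7 is the single cluster gene right of the line, and 7 of the 12 other genes have a filled point right of it.

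In the Adamts family, 6 of 18 genes (33.3%) reached 1.5-fold in favour of the psyllium array and 1 (5.56%) in favour of the control array. Over all named genes the shares were 3.42% and 2.81%. Adamts12, which cleaves cartilage oligomeric matrix protein, had 41.9 on the control and 80.1 on the psyllium array, a 1.91-fold difference. Adamts19, whose substrates are less well known, had 47.0 and 88.7 (1.89-fold), and Adamts17, an enzyme tied to fibrillin microfibrils, had 51.5 and 81.6 (1.59-fold). Adamts9, which cleaves versican and aggrecan, had 67.0 and 102 (1.53-fold). The control value lay below the filter for each of these 4. Adamts5 and Adamts8 also passed 1.5-fold but were below the filter on both arrays. Adamts5, a versican and aggrecan cleaving enzyme, had 26.3 and 39.7, and Adamts8 had 36.3 and 56.4, with a second probe set differing by only 0.17.

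The remaining proteoglycan-cleaving members differed less. Adamts1, which cleaves versican, had 66.2 on the control and 81.7 on the psyllium array, a difference of 0.30. Adamts15 had 66.5 and 82.5, a difference of 0.31. Adamts4, named for its action on aggrecan, was dim at 33.1 and 33.8, and its difference of 0.03 turned to -0.02 when an intensity trend was removed. All 7 proteoglycan-cleaving members had positive differences with the values as deposited, and 3 of them reached 1.5-fold.

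Other Adamts genes were in the same range. Adamts10, a microfibril-associated enzyme, was the 1 Adamts gene past the filter on both arrays, at 93.7 and 113, a difference of 0.28. Adamts14, which trims procollagen at its amino end, had 66.3 and 80.0, a difference of 0.27, but its second, dimmer probe set gave -0.14. Its relative Adamts3 had 29.4 and 37.3, a difference of 0.34.

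Adamts18 differed the other way and by more than any other member. Its intensity was 83.2 with the control diet against 28.6 with psyllium, a 2.91-fold lower value. It was past the filter on the control array alone, it has a single probe set here, and the psyllium value is dim, so the size of the fold is uncertain. Its promoter is shown because its difference was opposite to those of its family.
Adamts18 (GRCm38.p6, chr8:113848840-113848939, - strand): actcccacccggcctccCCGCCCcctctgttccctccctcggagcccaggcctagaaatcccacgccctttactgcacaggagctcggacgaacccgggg
It carries a GC box and neither of the other motifs in these 100 bases. GC boxes occurred in 35.7% of all windows, and a link between motifs and differences was not tested.

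**Figure D3:**
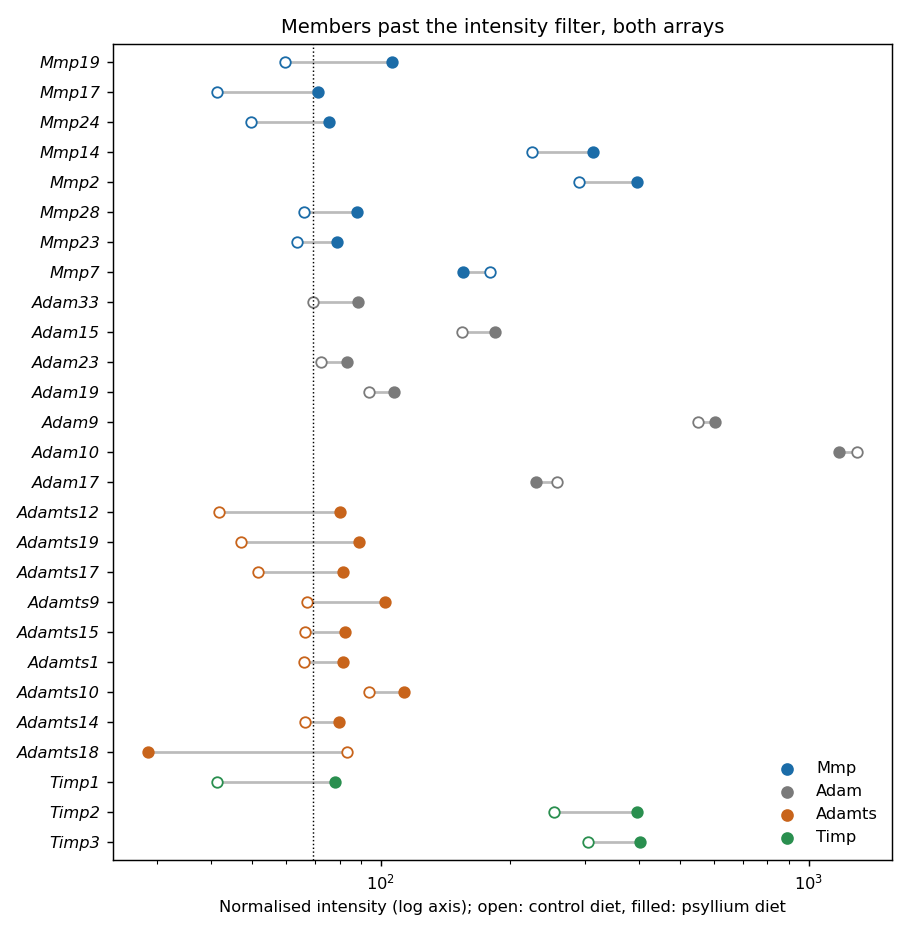
Normalised intensity (horizontal, log axis) of the 27 members past the filter, grouped by family. Open points are the control array, filled points the psyllium array, and the dotted line is the filter of 69.5. Positions are comparable along a row and not between rows. In Adamts18 the filled point lies left of the open one, at 28.6 against 83.2, and 7 of the 9 Adamts genes shown have an open point left of the line.

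ADAM genes past the filter had small differences in both directions. Adam10, which releases Notch, cadherins and other surface proteins, had 1296 on the control and 1178 on the psyllium array, a difference of -0.14. Adam17, the enzyme that frees tumour necrosis factor and several EGF receptor ligands, had 258 and 231, a difference of -0.16. Adam9 had 550 and 603 (0.13), and Adam15, which carries an integrin-binding motif, had 154 and 184 (0.26), with 0.18 from its second probe set. Adam19 had 93.6 and 108, a difference of 0.20. Adam33, an ADAM of mesenchymal cells, had 69.4 and 88.1, a difference of 0.34 and the largest among Adam genes past the filter. None of the 7 Adam genes past the filter reached 1.5-fold, which is near the background of 4.02% higher and 2.43% lower.

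ADAMs of the nervous system and of the reproductive tract were mostly dim. Of the 3 neural ADAMs without protease activity, Adam23 was past the filter, at 72.3 on the control and 83.4 on the psyllium array. Of the 21 ADAMs grouped as reproductive-tract members, none was past the filter, and the highest value on either array was 56.9, for Adam1a. Their differences ran from -0.83 to 0.49 with a median of -0.12. The lowest was that of Adam25, at intensities of 6.03 and 3.40, where a fold has little meaning. Adam12, a mesenchymal ADAM that was dim on both arrays, had 44.4 and 65.4, a difference of 0.56.

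**Figure D4:**
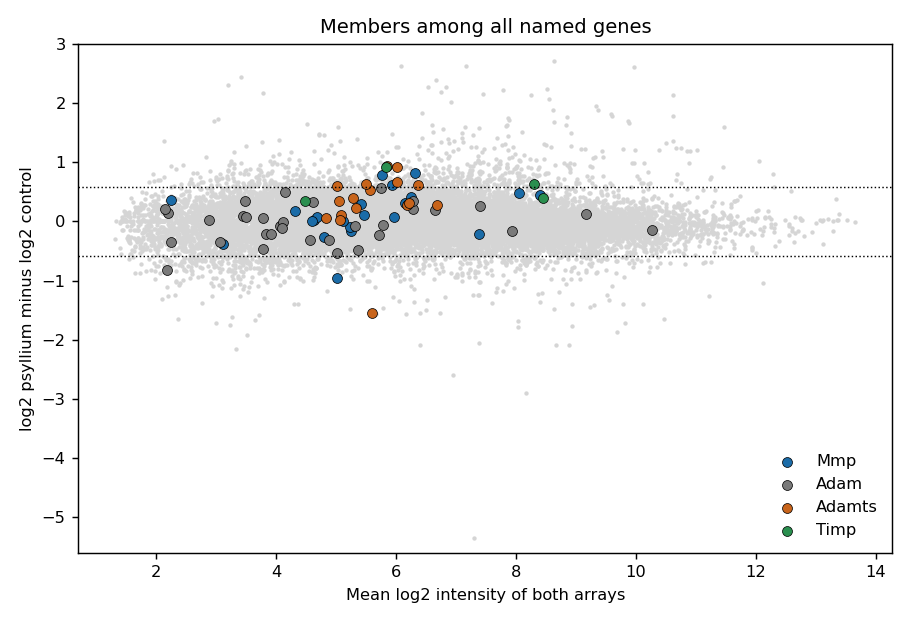
All 22180 named genes (grey) and the 77 members (coloured by family), with the mean log2 intensity of both arrays on the horizontal axis and log2 psyllium minus log2 control on the vertical axis. Dotted lines mark 1.5-fold. Grey points spread widely at the intensities of most members, and Adamts18 at -1.54 is the lowest member.

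Genes that act on or with these enzymes were taken from lists written from general knowledge, with no test. These lists and the marker lists below were written with earlier results of these data known, so their shares are no independent support. Their counts stand beside a background of 3.42% of all named genes at least 1.5-fold higher and 2.81% lower. Matrix substrates were the list with the largest shift. Of 15 measured, 10 reached 1.5-fold in the direction of psyllium and none in the other, and the median difference was 1.21. Versican, Vcan, the substrate of several Adamts enzymes, had 50.4 on the control and 229 on the psyllium array, and fibronectin, Fn1, had 404 and 2464. Fibrillar collagen Col3a1 had 422 and 1449, and Col1a1 had 252 and 853. The aggrecan gene Acan was dim on both arrays, at 18.6 and 19.6. The matrix substrate median of 1.21 was larger than those of the Timp (0.52), Adamts (0.33) and Mmp (0.09) families.

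Among 7 astacin proteases and procollagen enhancers, 2 were at least 1.5-fold higher and 1 lower by that factor, and 4 had a positive difference. Pcolce, which speeds the trimming of procollagen, had 89.1 on the control and 160 on the psyllium array (1.79-fold). Bmp1, the procollagen C-proteinase, had 104 and 168 (1.62-fold). Mep1b, the beta subunit of meprin, a brush-border metalloproteinase, had 1135 and 536 and was 2.12-fold lower, whereas the alpha subunit Mep1a differed by -0.06.

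Activators and escorts of the enzymes had members on both sides of 0. None of 9 plasminogen and proprotein convertase genes reached 1.5-fold, with a median of -0.05, and counts of 0 in lists this short are near the background of 3.42% higher and 2.81% lower. The plasminogen activators differed in opposite directions, with Plat at 0.41 and Plau at -0.36. Bsg, a surface protein that induces MMPs in neighbouring cells, differed by -0.05, and Pcsk7, a proprotein convertase, by 0.07. None of 9 iRhom, FRMD8 and tetraspanin genes, whose products escort ADAM17 or ADAM10, reached it either, with a median of 0.02. In that list Tspan15 differed by -0.25 and Tspan14 by 0.01, while Tspan5 differed by 0.46 and Tspan33 by 0.39. For the ADAMTS-like proteins the median was 0.01, and none of 7 reached that fold. Thsd4 differed by -0.20 and Adamtsl5 by -0.29, whereas Adamtsl4 differed by 0.38 and Adamtsl2 by 0.32.

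Of 5 measured other inhibitors none reached 1.5-fold. Sfrp1 differed by -0.09 and Tfpi2, a protease inhibitor laid down in matrix, by -0.51. Their median was -0.09, against 0.52 for the TIMPs. Shed membrane substrates had a median of -0.11, and 1 of 14 (7.14%) was at least 1.5-fold higher, against 3.42% of all named genes. A count of 1 in a list this short is near that background. The gene was Cd44, the hyaluronan receptor, with 450 on the control and 848 on the psyllium array (1.88-fold).

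Marker genes of the tissue's cell types also differed between the arrays, and their part in the members' differences was not tested. The background for the marker counts is again 3.42% of all named genes at least 1.5-fold higher and 2.81% lower. All 11 smooth muscle markers were higher with psyllium by 1.5-fold or more. Their median difference was 1.19, and their intensities summed to 11754 on the control and 28270 on the psyllium array. Such sums, here and below, are led by the brightest probe sets and do not measure the amount of a cell type. Of 10 fibroblast markers 7 were higher to that extent and none lower. The median was 1.20, and the sums were 4081 and 9675. Of these, Col1a1, Col1a2, Col3a1 and Dcn are also in the matrix substrate list, and Pi16 was below the filter on both arrays (32.1 and 60.5). The fibroblast markers under 1.5-fold were Pdgfra (0.32), Thy1 (0.50) and the receptor Pdgfrb (-0.19). Pan-epithelial markers had negative differences in 10 of 10 genes, a median of -0.27 and sums of 18885 and 16007. Absorptive colonocyte markers were lower in 6 of 7 genes, 3 of them by at least 1.5-fold, with a median of -0.37 and sums of 20144 and 15824. The largest differences were those of the esterase Ces2a (-2.90), the water channel Aqp8 (-2.60) and the carbonic anhydrase Car4 (-1.42). Goblet cell markers were higher in 6 of 6 genes, 2 of them by at least 1.5-fold, with a median of 0.32 and sums of 24764 and 30463. Macrophage markers were higher in 7 of 8 genes, 2 of them by at least 1.5-fold. Their median was 0.39, their sums were 1336 and 1547, and Mertk differed by -0.41. In whole-tissue RNA, fewer cells of a type and less RNA per cell cannot be told apart.

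T cell markers had a median of -0.65, with 3 of 5 at least 1.5-fold lower and sums of 476 and 282. Among those 3, Cd8a was below the filter on both arrays (53.1 and 33.8). Cd3d, also below it, differed the other way, by 0.41 (23.9 and 31.8). For endothelial markers the median was -0.03, and none of 7 reached 1.5-fold. Neutrophil markers had 3 of 6 genes above 0 and 3 below. Only 1 was past the filter, Ly6g, with 90.8 on the control and 137 on the psyllium array (1.51-fold). The defining genes S100a8 (10.2 and 9.24) and S100a9 (32.3 and 26.4) were dim on both arrays. For mesothelial markers the median was 0.25, and 2 of 5 were higher by 1.5-fold. These were Wt1, below the filter on both arrays (42.9 and 65.5), and Upk3b, below it on the control array (63.2 and 99.5). Krt19, the 1 mesothelial marker past the filter on both arrays (2109 and 1746), differed by -0.27, as did the pan-epithelial median. Whether its signal came from mesothelium was not tested, so it gives that cell type no direction. No marker had an intensity of 0 on either array. The labelled tissue was checked through Cdx2, an intestinal transcription factor (933 and 665), and Muc2, the goblet cell mucin (9087 and 11892). Hoxb13 and Hoxd13, genes of the hindmost gut, were below the filter on both arrays.

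**Figure D5:**
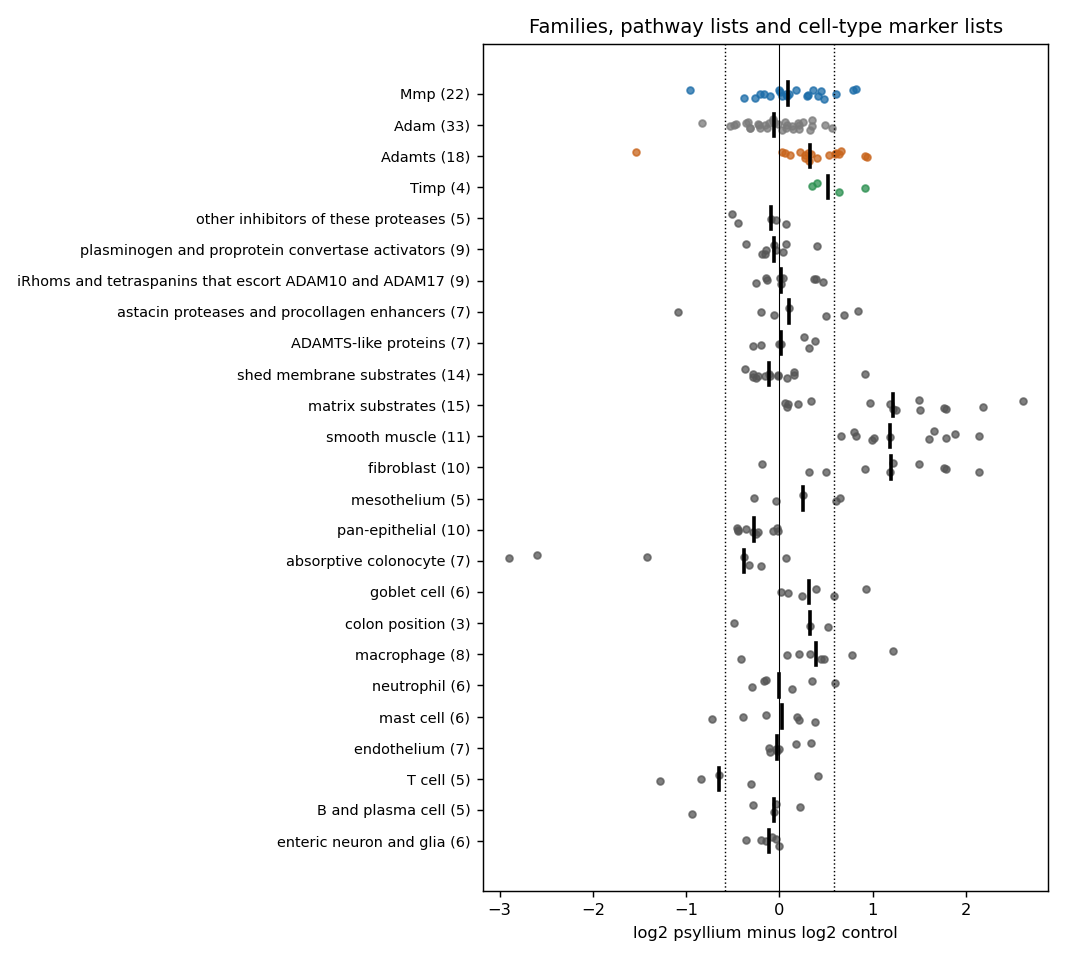
Differences (horizontal axis, log2 psyllium minus log2 control) of each gene of the 4 families and of every pathway and marker list, with the number of measured genes in brackets. Bars are medians and dotted lines mark 1.5-fold. Matrix substrates, smooth muscle and fibroblast markers have medians of 1.21, 1.19 and 1.20, further right than the Timp median of 0.52 and the Adamts median of 0.33.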

How the data were processed

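Each diet had 1 whole-transcript array. The authors deposited 1 normalised intensity for each probe set and array, in linear units. Per the submitters' processing notes, Affymetrix Expression Console and RMA were used (no versions listed), and how RMA's log2 output was returned to linear units is not stated there. They ran from 1.92 to 13675 (control) and 1.76 to 13841 (psyllium), with medians of 48.9 and 49.8.

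Intensities were converted to log2 without a pseudocount. GEO's platform annotation named 1 gene for 23521 probe sets, several for 1814 and none for 16010, and 23328 of the first were found by gene number in RefSeq's table of GRCm38.p6. For genes with several probe sets, 6 of them members, the one with the highest mean was used. Counts used 1.5-fold and 2-fold. Members, lists and promoter motifs were chosen with earlier results of these data known. A planned search of member proteins for a zinc-binding motif was not run here.

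Named with values were all Timp genes, members past the filter differing by at least 1.5-fold, the brightest members of role groups without one, and a fixed set of well-known enzymes. Others, such as Adamts8, Adamts3, Adam12, Adam25, Adam1a, Mmp8, Acan, Plat, Plau, Tspan5, Tspan33, Adamtsl2, Adamtsl4, second probe sets and the marker genes, were singled out after their values were seen. Marker and pathway lists gave up to 4 members by size of difference or up to 2 by level. Alternatives were another probe set rule, other filters, added quantile normalisation, removal of an intensity trend (lowess, statsmodels 0.14.6), a pseudocount of 16 and 2-fold. Python 3.11.15 and pandas 2.3.3 were used, and the counting was tested on simulated data. The simulated shifts were well above 1.5-fold, so that test checks the counting and not differences near the threshold. The number of arrays limits the precision.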

Additional observations from a re-analysis of the deposited data

How the results depend on the processing

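The 10 members past the filter that differed by at least 1.5-fold kept their direction under added quantile normalisation and removal of the intensity trend, and 10 and 9 of them still reached 1.5-fold. Each has 1 probe set, so the mean of probe sets adds no check of them. A pseudocount of 16 cannot turn a sign, and 7 still reached 1.5-fold with it. The counts depended on the filter. The 9 higher members became 1 with both arrays past the filter, 1 with the filter at the 75th percentile (an intensity of 202), 5 with the filter on the mean and 0 at 2-fold. The 1 lower member became 3 without a filter and 0 under each of those 3 other filters. The Mmp median moved from 0.09 to 0.45 with both arrays past the filter, 0.46 at the 75th percentile, 0.43 with the filter on the mean and 0.46 over genes past the filter. The Adam median moved from -0.06 to 0.17 with both arrays past the filter, and to 0.20 with the filter on the mean and over genes past the filter. These are medians over fewer genes, and a filter on the brighter array favours genes that differ. The Timp and Adamts medians kept their sign under every alternative that gave a value, and no Adamts gene was left at the 75th percentile. Without a filter the counts of genes past it are 22 Mmp, 33 Adam and 18 Adamts. With both arrays past it they are 3 Mmp and 1 Adamts, and at the 75th percentile 2 Mmp, 3 Adam and 0 Adamts. A median or a difference was said to move when it changed by more than 0.19, since there are no replicates. This is the median gap between probe sets of the same gene, over 286 genes with 2 probe sets past the filter. It does not cover the 50 members below the filter. A count was said to move when it changed by more than a factor of 1.5 or fell to 0. The filter on the mean, and medians over genes past the filter, were chosen after seeing the data. No paired analysis was possible because each diet has 1 array, so no replicate could be left out either.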

Other observations

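Besides the probe set shared by Mmp24 and BC029722, 2 probe sets of the families name several genes and entered no comparison. Both name Adam34 together with Gm5347, and 1 had intensities of 8.47 on the control and 6.74 on the psyllium array, and the other 4.82 and 10.6. Their differences of -0.33 and 1.14 had opposite signs, and both lay far below the filter's intensity of 69.5.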
